A study of Mus musculus with 2 samples.

Results

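Inhibitory checkpoint receptors are surface proteins through which immune cells receive signals that restrain activation. They were followed here in immune cells of mouse liver. The set holds 9 receptors (Pdcd1, Ctla4, Tigit, Havcr2, Lag3, Cd160, Cd101, Cd200r1 and Cd96). These are 9 of the 13528 genes in the count table, and the panel of 49 antibodies reads the protein of 4 of them, with CD279 for Pdcd1, CD223 for Lag3, TIGIT for Tigit and CD366 for Havcr2. They were chosen by name and described in every annotated cell type and cluster. CD45+ liver cells were captured on the BD Rhapsody platform, which counts transcripts and antibody tags of the same cell as unique molecular identifiers (UMIs). TG cells came from mice with dnTGFβRII, a dominant negative TGF-β receptor II under the CD4 promoter, which serves to model primary biliary cholangitis. WT cells came from wild type mice of the same C57BL/6 strain. Each genotype was captured in 1 library together with a second genotype, P40-/-IL-2Ra-/- for WT and IFN-γ ARE-Del-/- for TG. The labels give an age of 10 weeks for both, and the number of mice behind each library is not given in the sources used here. Neither genotype has a replicate, so no test was made, and every TG to WT difference given here is also a difference between 2 captures, which cannot be told apart.

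Checkpoint receptors work against the activating receptors that share their ligands. PD-1, the product of Pdcd1, binds PD-L1 and PD-L2 and recruits the phosphatase SHP-2. CTLA-4 takes CD80 and CD86 away from the activating receptor CD28 and is held at high levels by regulatory T cells. TIGIT and CD96 compete with the activating receptor CD226 for CD155, the product of Pvr. TIM-3 (Havcr2) is found on activated T cells and on dendritic cells, LAG-3 is a relative of CD4 that binds MHC class II, and CD160 is a receptor of NK cells and some CD8 T cells that binds the product of Tnfrsf14. CD101 and CD200R1 restrain both T and myeloid cells, and CD200R1 binds CD200. In the liver such receptors are known for restraining T cells that meet antigen over a long time.

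All 9 genes are protein coding, and they lie on 5 chromosomes (GRCm38, GENCODE). Ctla4 (chr1:60887000-60915832, plus strand) lies 62.1 kb from Icos and 114 kb from Cd28, and Pdcd1 (chr1:94038305-94052553, minus) is on the same chromosome. Chromosome 16 carries Tigit (chr16:43648867-43664146, minus), Cd200r1 (chr16:44765736-44794978, plus) and Cd96 (chr16:46035657-46120251, minus). Cd160 (chr3:96798763-96829351, minus) and Cd101 (chr3:100993529-101029556, minus) share chromosome 3. Havcr2 is at chr11:46454935-46481255 (plus), and Lag3 (chr6:124904361-124911705, minus) lies 16.1 kb from Cd4.

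Sequence upstream of the transcription start was given for 7 of the 9 members, with 2 starts for Cd160 (RefSeq, GRCm38.p6). Lag3 and Cd200r1 had no entry. In the 250 bases before each start 5 motifs were searched on both strands, of which none contains another: TGTGGTT (RUNX), GGAAAA (NFAT), TGANTCA (AP-1), AAAGGTCA (NBRE, bound by NR4A factors) and AGGTGTGA (T-box). The RUNX motif was found before 6 of the 8 starts, those of 5 of the 7 members, and in 4.40% of 32851 promoters of the same length. GGAAAA was found before 2 starts, of Ctla4 and Tigit, against 20.4% of all promoters. TGANTCA was found before 1 start, of Havcr2, against 6.75%. NBRE and T-box were found before 0 of the 8 starts, against 1.34% and 1.12% of all promoters. The RUNX motif was singled out after these matches were seen, the AP-1 motif was widened by a free middle base after a first look, and a match of letters is not a binding site. The 5 promoters below, 1 for each member with a RUNX match, are shown for it, and capitals mark TGTGGTT or its reverse complement AACCACA. The matches begin between 29 and 141 bases before the start, in Cd96 and Tigit respectively.
Cd96 (chr16:46120249-46120498, minus strand): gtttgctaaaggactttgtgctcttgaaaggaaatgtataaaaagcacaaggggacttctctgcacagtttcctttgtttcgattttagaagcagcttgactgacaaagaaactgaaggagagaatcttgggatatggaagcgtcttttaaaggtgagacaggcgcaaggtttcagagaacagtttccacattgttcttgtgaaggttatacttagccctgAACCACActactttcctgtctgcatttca
Tigit (chr16:43664185-43664434, minus strand): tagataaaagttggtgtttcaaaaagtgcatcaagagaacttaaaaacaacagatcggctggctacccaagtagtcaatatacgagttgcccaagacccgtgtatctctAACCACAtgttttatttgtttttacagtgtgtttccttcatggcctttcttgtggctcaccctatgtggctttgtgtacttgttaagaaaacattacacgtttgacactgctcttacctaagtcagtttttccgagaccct
Havcr2 (chr11:46454681-46454930, plus strand): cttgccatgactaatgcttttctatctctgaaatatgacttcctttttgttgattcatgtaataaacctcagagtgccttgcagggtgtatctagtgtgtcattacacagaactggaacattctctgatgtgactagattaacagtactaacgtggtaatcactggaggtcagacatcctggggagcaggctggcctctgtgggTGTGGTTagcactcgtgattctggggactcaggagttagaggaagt
Cd101 (chr3:101029554-101029803, minus strand): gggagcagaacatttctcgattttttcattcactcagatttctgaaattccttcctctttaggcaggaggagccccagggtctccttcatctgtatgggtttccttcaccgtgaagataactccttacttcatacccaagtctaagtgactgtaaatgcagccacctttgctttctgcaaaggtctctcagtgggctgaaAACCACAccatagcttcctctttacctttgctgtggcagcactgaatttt
Cd160, upstream start (chr3:96829352-96829601, minus strand): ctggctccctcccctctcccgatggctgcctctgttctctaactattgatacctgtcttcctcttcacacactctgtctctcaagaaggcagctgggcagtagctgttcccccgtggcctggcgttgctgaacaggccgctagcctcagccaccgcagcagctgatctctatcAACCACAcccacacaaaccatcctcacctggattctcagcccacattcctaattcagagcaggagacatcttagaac

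The values rest on the cells that carry a genotype name, 4647 TG cells with 18498477 UMIs and 7282 WT cells with 22216379 UMIs. The median cell had 3298 UMIs in TG and 2653.5 UMIs in WT, and median antibody counts were 1363 and 1312. Levels are given as UMIs per 1000000 UMIs of the summed cells (CPM), and intervals are 95% exact intervals (Poisson for CPM, conditional binomial for ratios, Clopper-Pearson for shares) that cover counting error only. Free RNA and mixed cells put some UMIs into cells that do not express a gene, so mature B cells were used as a background. Their member levels were between 0.298 and 25.6 CPM in both libraries, and the highest was that of Cd160. The levels were not equal, and every member was lower in TG mature B cells. The interval of the log2 ratio excluded 0 for Havcr2 (-3.45), Tigit (-2.18), Lag3 (-1.96), Cd96 (-1.26) and Pdcd1 (-1.11). The part of this background in the TG to WT differences given below was not tested. Part of this background came from cluster 17, which carries the mature B name although 96.6% of its 29 TG cells and 95.5% of its 155 WT cells held T lineage as well as B lineage UMIs. By the same rule 21.4% of the other TG mature B cells and 10.6% of the other WT mature B cells did. Without cluster 17, a set chosen after these values were seen, Cd160 in mature B cells stood at 13.2 CPM in TG against 4.19 CPM in WT. Tigit was then at 0.629 and 0.698 CPM, Pdcd1 at 1.26 and 1.05 CPM and Havcr2 at 0.315 and 1.75 CPM. Lag3 was at 3.78 and 7.68 CPM and Cd96 at 1.26 and 4.19 CPM.

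The members were sparse transcripts. Over all cells Havcr2 and Pdcd1 were the least often found, in 1.44% and 1.46% of TG cells and in 2.11% and 2.50% of WT cells. Cd160 was found in 30.9% of TG and 21.9% of WT cells, and Cd96 in 18% and 16.5%. Between 59.7% (Havcr2 in WT) and 88.1% (Cd200r1 in TG) of the positive cells held a single UMI, except for Cd160 with 40.6% in TG and 53.0% in WT. A cell without a UMI of a member is therefore not a cell that lacks it.

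**Figure D1:**
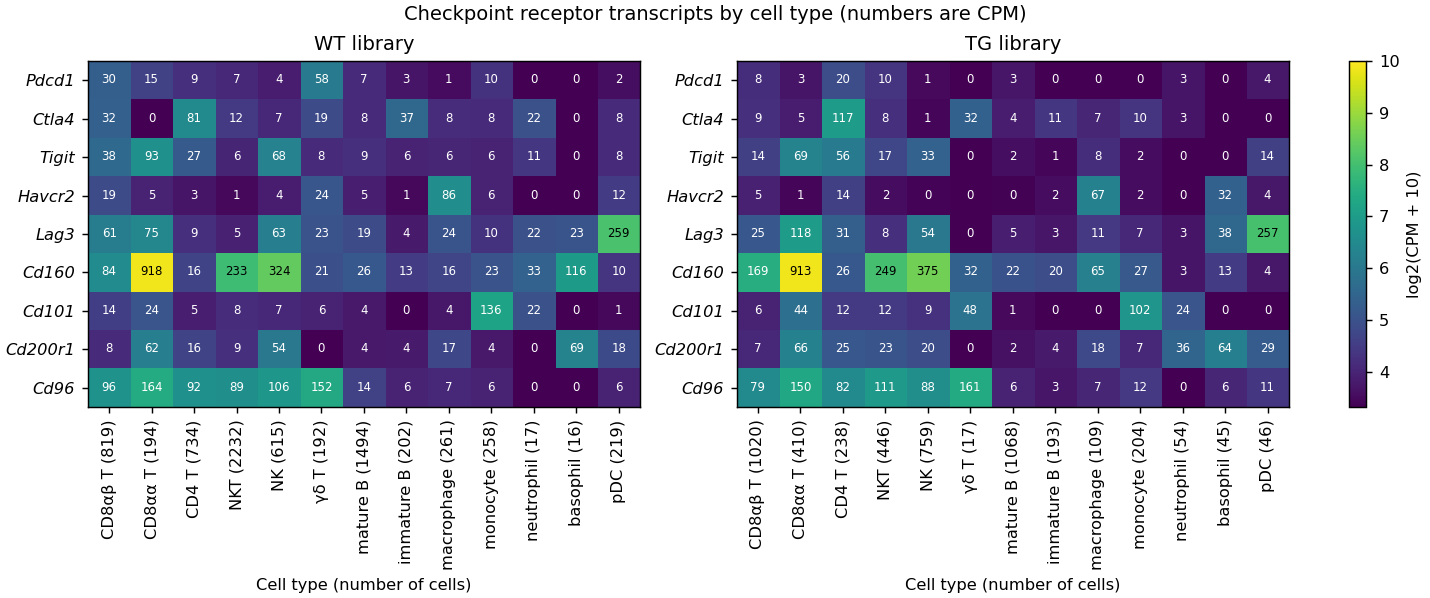
Each cell gives the CPM of 1 receptor transcript (rows) in 1 annotated cell type (columns, with the number of cells) of the WT library (left) and the TG library (right), and color shows log2(CPM + 10). Cd160 stands out in CD8αα T cells (918 CPM in WT, 913 CPM in TG), Lag3 in pDC, Havcr2 in macrophages and Cd101 in monocytes, and cells named other are left out.

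Among the annotated cell types Lag3 had its highest level outside the T cells in both libraries, although cluster 23 of the WT CD8αβ T cells was higher (480 CPM). Levels of 257 CPM (201 to 323) in the TG library and 259 CPM (229 to 292) in the WT library were reached by plasmacytoid dendritic cells (pDC), the interferon-producing dendritic cells that carried Siglech at 3028 and 4304 CPM. Of these cells 73.9% of 46 in TG and 63.0% of 219 in WT held a Lag3 UMI, against 1.5% and 2.95% of mature B cells. The depth of the pDC was greater, with medians of 6011.5 and 4648 UMIs against 2923 and 2044.5 in mature B cells. At 1000 UMIs in every cell the pDC shares were 26.1% and 16.9%. CD8αα T cells followed with 118 CPM in TG and 74.5 CPM in WT, then NK cells with 53.9 and 62.9 CPM. CD8αβ T cells held 25.1 and 60.7 CPM, and in TG they came after CD4 T cells. The first place did not overlap with the next in either library. The intervals of CD8αα T, NK and CD8αβ T cells overlapped in WT, whereas CD8αα T cells lay above both other classes in TG. CD4 T cells held 30.8 CPM in TG and 8.73 CPM in WT, and the remaining types were at 38.2 CPM or less. Sema4c (r = 0.821), Atp1b1 (0.818) and Ccl4 (0.817) had the profiles most like Lag3 over 21 profiles of a cell type in a library.

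Havcr2 was highest in the cells named macrophage, with TG at 67.0 CPM (48.1 to 90.9) and WT at 86.4 CPM (71.7 to 103). Within that name the WT level was carried by cluster 22, at 175 CPM in 80 cells, and cluster 15 held 32.4 CPM in 158 cells. In TG the same clusters held 70.7 CPM in 20 cells and 65.6 CPM in 89 cells. The markers of cluster 22 went against its name. It held Xcr1 at 448 CPM in TG against 512 CPM in WT and Flt3 at 294 and 303 CPM, genes that mark conventional dendritic cells, with C1qa at 0 UMIs in both libraries. C1qa was at 2046 CPM in cluster 27, which held 23 WT cells and no TG cell. Of cluster 22 cells 25% in TG and 56.2% in WT held a Havcr2 UMI. Cxcl9, a chemokine of interferon-γ responses, was among the 3 genes whose levels over 21 cell type profiles were most like those of Havcr2 (Pearson r = 0.868), after Tspan33 (0.875) and Fam129b (0.874). Among T cells, WT γδ T cells held 24.5 CPM of Havcr2 and CD8αβ T cells held 5.28 CPM in TG and 18.9 CPM in WT.

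Cd101 was highest in monocytes, with 102 CPM (78.0 to 131) in TG and 136 CPM (106 to 171) in WT, found in 22.1% and 23.3% of them. These cells also held neutrophil genes at high levels, with S100a8 at 21386 CPM in TG against 10788 CPM in WT and Ly6g at 262 and 86.1 CPM. The part of these genes in the Cd101 level was not tested. The cells named neutrophil (54 in TG and 17 in WT) held 23.8 and 21.8 CPM, from 8 and 2 UMIs. CD8αα T cells came next among the larger types, with 43.8 CPM in TG and 23.6 CPM in WT, and apart from the TG neutrophils all other types with at least 50 cells were at 13.7 CPM or less. Immature B cells held 0 Cd101 UMIs in both libraries. Over the 21 profiles Tmem43 (r = 0.915), Fam32a (0.913) and Hdac4 (0.901) were most like Cd101.

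Cd200r1, best known from myeloid cells, was high in CD8αα T cells in both libraries and low in several other lymphocyte classes. CD8αα T cells held 66.4 CPM in TG and 61.8 CPM in WT. NK cells held 19.7 CPM in TG and 53.6 CPM in WT, and most of the WT level came from NK cluster 3, at 101 CPM. Basophils reached 63.6 and 69.3 CPM, from 10 and 3 UMIs, so their place in the order was not resolved. Macrophages held 18 and 17.1 CPM, and pDC 28.5 and 18.1 CPM. TG neutrophils held 35.6 CPM from 12 UMIs in 54 cells, and the 17 WT neutrophils held 0 UMIs. Cables1 had the profile most like Cd200r1 (r = 0.808 over 21 profiles).

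Cd160 had the highest count of the set, 3595 UMIs in TG and 3026 in WT. CD8αα T cells, a population that carries CD8α without CD8β, led it with 913 CPM (862 to 966) in TG and 918 CPM (840 to 1002) in WT. NK cells followed with 375 and 324 CPM and NKT cells with 249 and 233 CPM, and no interval of these 3 classes overlapped with that of another in either library. Among types with at least 50 cells CD8αβ T cells came after them, with 169 CPM in TG and 83.8 CPM in WT. In CD8αα T cells 89.8% (TG) and 84.5% (WT) held a UMI, at medians of 3168.5 and 2702 UMIs, against 4.87% and 3.41% of mature B cells. Over the 21 profiles the gene most like Cd160 was Klre1 (r = 0.971), an NK cell receptor gene, followed by Chn2 (0.967) and Bspry (0.967). The WT cells named CD8αα T also held Trdc, a γδ T cell receptor gene, at 855 CPM, against 95.1 CPM in TG, and Hbb-bs, a haemoglobin gene, at 1351 CPM against 0.755 CPM. Without the cells with a Trdc UMI the log2 ratio of TG over WT of Cd160 in this class was -0.02 (-0.01 with them), and the median over its 7 measured members was -0.18 (-0.01 with them). The part of the Hbb-bs signal was not tested.

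Tigit and Cd96, whose products share a ligand, were both highest in CD8αα T cells among types with at least 50 cells, and of the 36 pairs of members theirs had the highest correlation over the 21 profiles (r = 0.781). Tigit was highest in CD8αα T cells, with TG at 69.5 CPM (56.0 to 85.2) and WT at 92.7 CPM (69.0 to 122). CD4 T cells followed in TG with 55.6 CPM, and NK cells followed in WT with 67.9 CPM, in both cases with overlapping intervals. Tigit was at 17 CPM or less in NKT cells, B cells, macrophages and monocytes of both libraries. Tox, a transcription factor of chronically stimulated T cells, had the profile most like that of Tigit (r = 0.889 over 21 profiles). Cd96 was spread over all T and NK cells. It lay between 79.2 CPM in TG CD8αβ T cells and 164 CPM in WT CD8αα T cells across the classes with at least 50 cells, and WT γδ T cells held 152 CPM. Its profile was most like those of general T cell signalling genes, Zap70 (r = 0.983), Cd3g (0.982) and Skap1 (0.966), and mature B cells held 5.95 and 14.5 CPM. These correlations describe profiles that share libraries and depth.

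Ctla4 was led by CD4 T cells, with 117 CPM (95.2 to 143) in TG and 81.2 CPM (69.0 to 94.9) in WT. Cluster 21 held most of it, at 405 CPM in its 48 TG cells and 469 CPM in its 65 WT cells. This cluster carried the regulatory T cell genes Foxp3 (923 CPM in TG, 953 CPM in WT) and Ikzf2 (1257 and 826 CPM), and Foxp3 was also the gene most like Ctla4 over the 21 profiles (r = 0.908). Cells named other held 54.2 CPM in TG (38 cells) and 20.4 CPM in WT (29 cells). Another raised level was seen outside the T cells. Immature B cells held 37.4 CPM (26.4 to 51.3) in WT and 10.6 CPM (5.67 to 18.2) in TG, found in 13.9% of 202 and 4.66% of 193 cells, where mature B cells had 1.47% and 1.12%. Immature B cells were deeper, at medians of 4426 and 5965 UMIs, and after thinning to 1000 UMIs 2.97% of the WT cells and 0.518% of the TG cells were positive, where mature B cells had 0.469% and 0.562%. At equal depth the WT share stayed above that background and the TG share, with few positive cells, did not. Over all UMIs TG mature B cells held 4.17 CPM (2.28 to 6.99), an interval that overlapped with that of TG immature B cells. The log2 ratio of TG over WT in immature B cells was -1.78 (-2.84 to -0.87). Ctla4 in CD8αβ T cells was at 8.86 CPM in TG against 31.6 CPM in WT, and 57.4% of the 47 TG UMIs lay in 3 cells.

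Pdcd1 was led by γδ T cells in WT, a type too rare in TG to be ranked. In WT it was highest in γδ T cells, at 58.4 CPM (39.7 to 82.8) with a UMI in 14.1% of 192 cells, against 1.2% of mature B cells at a lower median depth (2406.5 and 2044.5 UMIs). The TG library held only 17 γδ T cells and 0 Pdcd1 UMIs in them, which allows up to 48.2 CPM, so no difference between the libraries was detectable. WT CD8αβ T cells followed with 30.3 CPM (24.5 to 37.2), below the γδ T cells without overlap, and held 8.49 CPM in TG. CD4 T cells had the highest measured level in TG with 20.1 CPM (11.7 to 32.2), overlapping with NKT cells at 10.2 CPM. Among clusters, cluster 23 of the CD8αβ T cells held 340 CPM in TG and 259 CPM in WT and cluster 21 of the CD4 T cells 76.9 and 39.1 CPM. Lcn4 (r = 0.794), Slc35f2 (0.792) and Rora (0.777) had the profiles most like Pdcd1. Across the 9 cell types with at least 50 cells in both libraries, the log2(CPM + 10) values of Pdcd1 in TG and WT had a Pearson r of 0.42. For the other 8 members this r was between 0.78 (Lag3) and 0.98 (Cd96). By rank (Spearman's rho) Havcr2 at 0.30 was lower than Pdcd1 at 0.44. Both describe profiles of 1 library each.

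The ligands of these receptors were read in the same cells. Of 16 ligand genes 13 were measured. Cd274, which encodes PD-L1, stood at 318 CPM in TG monocytes and 70.8 CPM in WT monocytes. The neutrophil genes S100a8 and Ly6g were also higher in TG in these cells, and their part in the Cd274 level was not tested. Pdcd1lg2, which encodes PD-L2, was highest in NKT cells at 39.7 and 43.8 CPM, and Pvr was also high in NKT cells, at 55.0 CPM in WT and 36.8 CPM in TG. Cd86 was at 75.2 and 76.4 CPM in macrophages, Cd200 at 110 and 117 CPM in mature B cells, and Ceacam1, a proposed ligand of TIM-3, at 333 CPM in TG neutrophils. The ligand of LAG-3, MHC class II, was at its highest level in cells named macrophage and B cells, with H2-Ab1 at 6754 and 8090 CPM in the former. Cluster 22, whose markers went against the macrophage name, was 18.3% of TG and 30.7% of WT cells so named. Its part in their H2-Ab1 and Cd86 levels was not tested.

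In CD8αβ T cells most members were lower in TG. Of the 9 members, 6 were at least 2-fold lower in TG with an interval that excluded 0 on the log2 scale, where 2.88% of the 11206 genes with at least 10 UMIs in these cells met the same rule. These were Pdcd1, Ctla4, Tigit, Havcr2, Lag3 and Cd101. From the same data the authors had reported Ctla4, Tigit, Havcr2 and Pdcd1 as lower in TG effector memory CD8 T cells. The count of 6 is therefore not independent of that report. Cd160 was at least 2-fold higher, where 3.79% of all genes were. The median log2 ratio over the 9 members was -1.27, and over all genes 0.03.

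Pdcd1 went from 30.3 CPM in WT to 8.49 CPM in TG, a log2 ratio of -1.83 (-2.39 to -1.31). Ctla4 and Havcr2 differed by the same amount, -1.83 each, with intervals of -2.37 to -1.32 and -2.55 to -1.17. Tigit was at -1.46 (-1.90 to -1.03), Lag3 at -1.27 (-1.61 to -0.95) and Cd101 at -1.27 (-2.0 to -0.57). Cd160 stood alone on the other side, at 1.01 (0.81 to 1.22), from 83.8 CPM in WT and 169 CPM in TG. Under the alternatives it ranged from 0.64 to 1.27, so the 2-fold call was not kept in all of them. Cd96 was at -0.27 (-0.49 to -0.05) and Cd200r1 at -0.20 (-0.98 to 0.64), so a difference in Cd200r1 was not detectable at this depth.

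**Figure D2:**
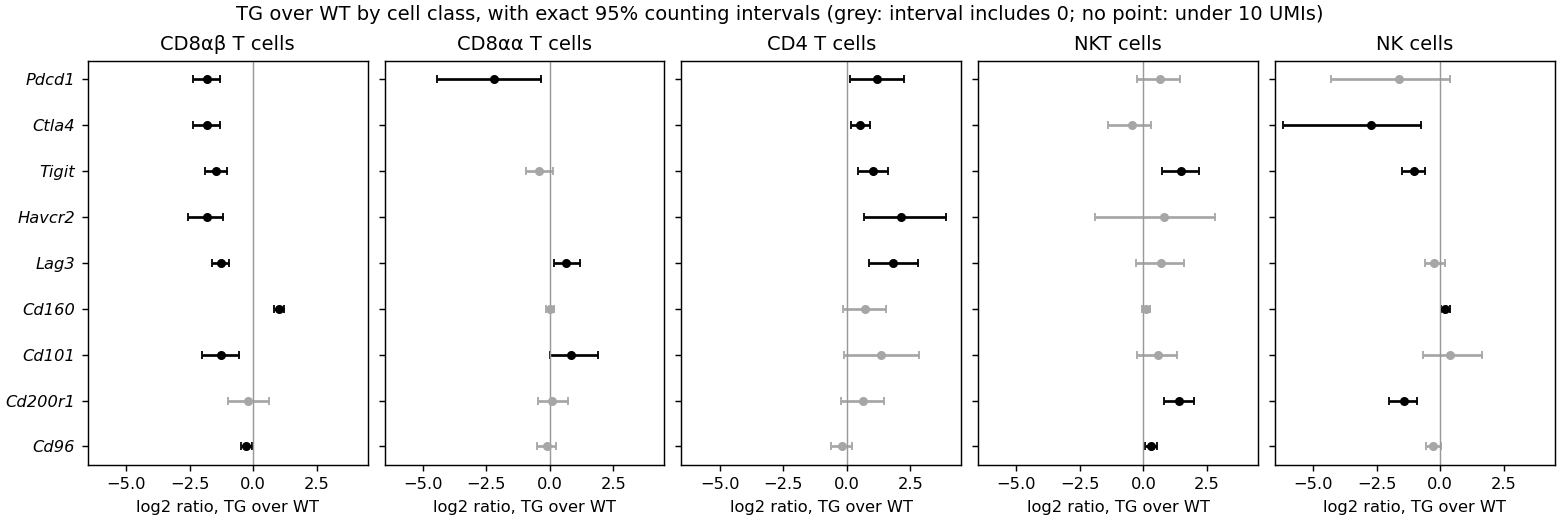
Points give the log2 ratio of TG over WT (horizontal axis) of each receptor (rows) in 5 cell classes, with lines for exact 95% counting intervals, gray where the interval includes 0. In CD8αβ T cells 6 receptors lie at -1.27 or below and Cd160 at 1.01, whereas in CD4 T cells Pdcd1, Tigit, Havcr2 and Lag3 lie at 1.03 or above.

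The CD8αβ T cells of the 2 libraries differed in their clusters. Cluster 23 was 76 of 819 WT cells (9.28%) and 15 of 1020 TG cells (1.47%), and it held 79.6% of the WT UMIs of Pdcd1, 73.7% of Lag3, 70.7% of Havcr2, 51.7% of Tigit, 42.9% of Cd101 and 35.1% of Ctla4. Within this cluster Pdcd1 and Tigit were high in both libraries, Tigit at 234 CPM in TG against 214 CPM in WT. Lag3 was at 106 CPM in TG (5 UMIs) and 480 CPM in WT (137 UMIs), a log2 ratio of -2.04 (-3.82 to -0.92). Ctla4 was at 119 CPM in WT and had 0 UMIs in the 15 TG cells, which allows up to 63.8 CPM.

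In the other 5 clusters together Pdcd1, Havcr2, Tigit and Cd101 differed less, and Cd160 differed more. Without cluster 23 Pdcd1 was at 5.52 CPM in TG against 6.84 CPM in WT, and Havcr2 at 4.57 and 6.12 CPM, with overlapping intervals for both. Cd101 was at 5.52 and 8.63 CPM (log2 ratio -0.65), also with overlapping intervals and below 2-fold. Lag3 changed direction, with 24.4 CPM in TG and 17.6 CPM in WT (log2 ratio 0.46). Tigit (12 and 20.5 CPM) and Ctla4 (8.94 and 22.7 CPM) stayed lower in TG, with log2 ratios of -0.78 and -1.34, and Cd160 was at 168 CPM in TG against 69.4 CPM in WT (log2 ratio 1.27). Cd200r1 went from -0.20 to 0.75, with overlapping intervals (4.32 to 8.82 CPM in TG and 1.73 to 6.62 CPM in WT). The median over the members was then -0.32, and without cluster 7 in place of cluster 23 it was -2.03. The rest of the class differed in make-up as well, with cluster 4 holding 44.3% of WT and 14.2% of TG cells and cluster 7 holding 16.1% and 31.3%. With the WT cluster shares used in both libraries, an alternative chosen after seeing the data, the median without cluster 23 was -0.70.

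Single clusters gave values free of that make-up. In cluster 7 (319 TG and 132 WT cells) Ctla4 was at 14.1 CPM in TG against 41.6 CPM in WT, a log2 ratio of -1.56 (-2.27 to -0.86). In the same cluster Lag3 was at 31.4 and 13.9 CPM (1.14, 0.32 to 2.16) and Cd160 at 152 and 85.2 CPM (0.82, 0.48 to 1.2), both higher in TG. In cluster 12 (249 and 73 cells) Tigit had 2 UMIs in TG and 15 in WT, at 2.72 and 68.3 CPM, and Lag3 was at 43.6 and 105 CPM (-1.27, -2.08 to -0.43). Lag3 thus had opposite directions in clusters 7 and 12. Tigit was at -0.31 (-1.10 to 0.55) in cluster 7, which held more of its UMIs (42 and 20), and at -0.16 in cluster 18 from 14 and 3 UMIs. It was at -2.08 (-4.32 to -0.33) in cluster 13 and at -2.27 (-8.22 to 0.03) in cluster 4, from 4 and 9 UMIs and from 1 and 10 UMIs. Cd160 was at -0.23 (-0.78 to 0.34) in cluster 13. Cluster 18 carried the highest Cd160 of the class, at 778 CPM (695 to 868) in TG and 326 CPM (218 to 468) in WT.

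**Figure D3:**
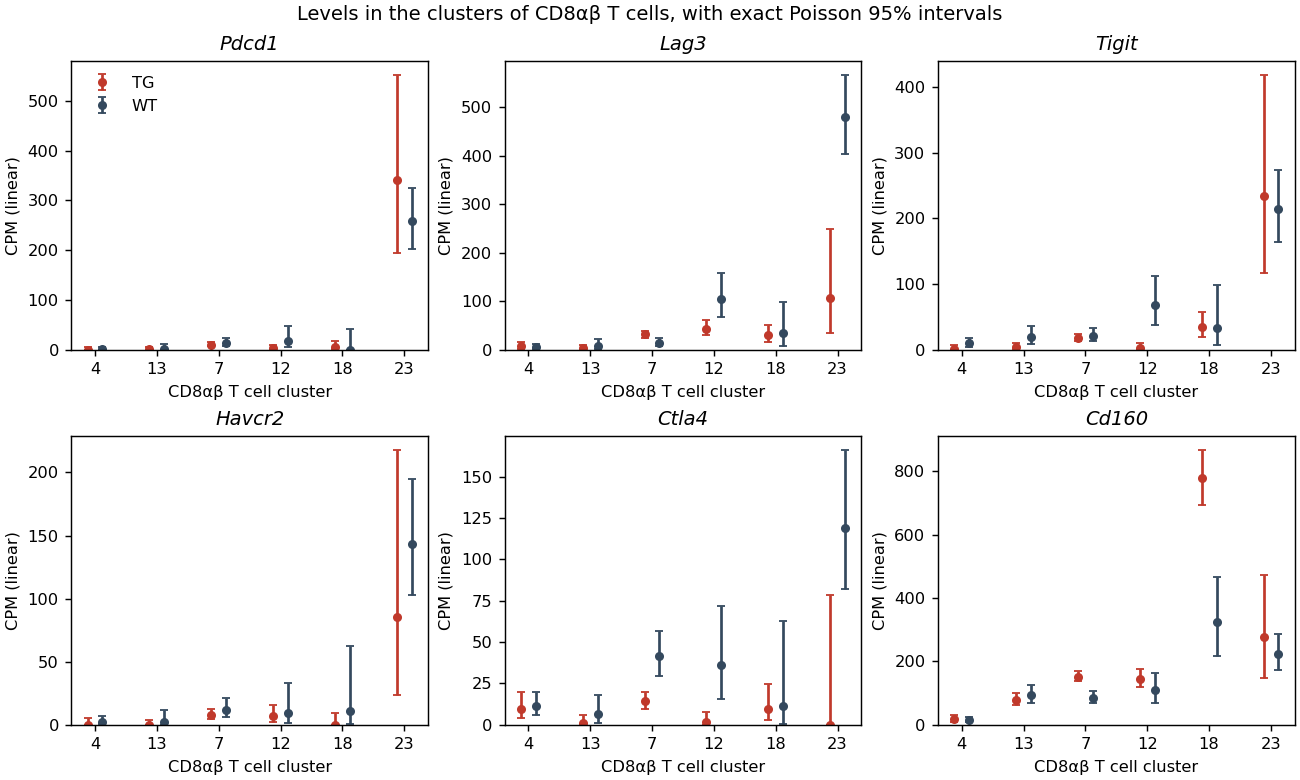
Each panel gives the CPM of 1 receptor (linear vertical axis) in the 6 clusters of CD8αβ T cells (horizontal axis), with exact 95% Poisson intervals, for TG (red) and WT (dark blue). Pdcd1, Lag3, Tigit and Havcr2 peak in cluster 23 in WT, and Cd160 peaks in cluster 18 in both libraries.

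At full depth CD8αβ T cells with a Pdcd1 UMI held Lag3 and Tigit more often than those without. In WT CD8αβ T cells, 59.7% of the 62 cells with a Pdcd1 UMI held Lag3 (46.5% to 71.9%), and 6.87% of those without Pdcd1 did. For Tigit the shares were 38.7% and 7.40%, and for Havcr2 29.0% and 2.91%. Cluster 23 held 79.6% of the WT UMIs of Pdcd1 and 73.7% of those of Lag3, so these shares also set that cluster against the others. Cells with Pdcd1 were deeper, at a median of 4501.5 against 2945 UMIs, and at 1000 UMIs per cell 6 of 17 Pdcd1 cells still held Lag3. The 25 TG cells with Pdcd1 held Lag3 in 36.0% and Tigit in 36.0%, against 7.84% and 4.42% of the other cells, and at 1000 UMIs Lag3 was in 0 of 6. In cluster 23 at least 3 members were found in 69.7% of WT and 46.7% of TG cells, where the whole class had 10.9% and 6.08%. At 1000 UMIs per cell the shares in the cluster were 11.8% and 0%, and in the class 1.34% and 0%, so in TG the excess was not detectable at that depth.

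CD4 T cells showed the opposite direction for several receptors. Of the 9 members 4 were at least 2-fold higher in TG with an interval excluding 0, Pdcd1, Tigit, Havcr2 and Lag3, where 5.07% of 9663 genes were, and 0 were lower, where 2.17% were. The median over the members was 1.03, and over all genes 0.10. Lag3 was at 30.8 CPM in TG against 8.73 CPM in WT (log2 ratio 1.80, 0.88 to 2.79) and Tigit at 55.6 and 27.2 CPM (1.03, 0.43 to 1.63). Pdcd1 (20.1 and 8.73 CPM) gave 1.2 (0.15 to 2.26) from 17 UMIs in each library, and Havcr2 (14.2 and 3.08 CPM) gave 2.15 (0.68 to 3.90) from 12 and 6 UMIs. At 1000 UMIs per cell Lag3 was at 0.34, below 2-fold, with 1.26% of TG and 0.954% of WT cells positive. Ctla4 was at 0.53 (0.15 to 0.90), and Cd96 at -0.17 (-0.60 to 0.23).

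Cluster 21, with the regulatory T cell genes, was 48 of 238 TG cells (20.2%) and 65 of 734 WT cells (8.86%). Without it, in an alternative chosen after seeing the data, the median was 0.39, and Pdcd1 (-0.50) and Ctla4 (-0.19) changed direction. Pdcd1 then rested on 2 and 9 UMIs. Lag3 was at 1.53 from 14 and 13 UMIs. Tigit fell below 2-fold at 0.39 from 11 and 23 UMIs, and Havcr2, with 3 and 4 UMIs, was below the minimum. Without Havcr2 the median was 0.21. Within cluster 9, with 132 TG and 272 WT cells, Lag3 was at 23.1 CPM in TG against 6.73 CPM in WT (1.71, 0.14 to 3.66). Ctla4 in the same cluster was at 29.4 and 61.9 CPM (-1.04, -2.05 to -0.18). In cluster 21 itself 35.4% of TG and 12.3% of WT cells held at least 3 members, at medians of 3674 and 2783 UMIs, and 6.25% and 1.54% at 1000 UMIs per cell.

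**Figure D4:**
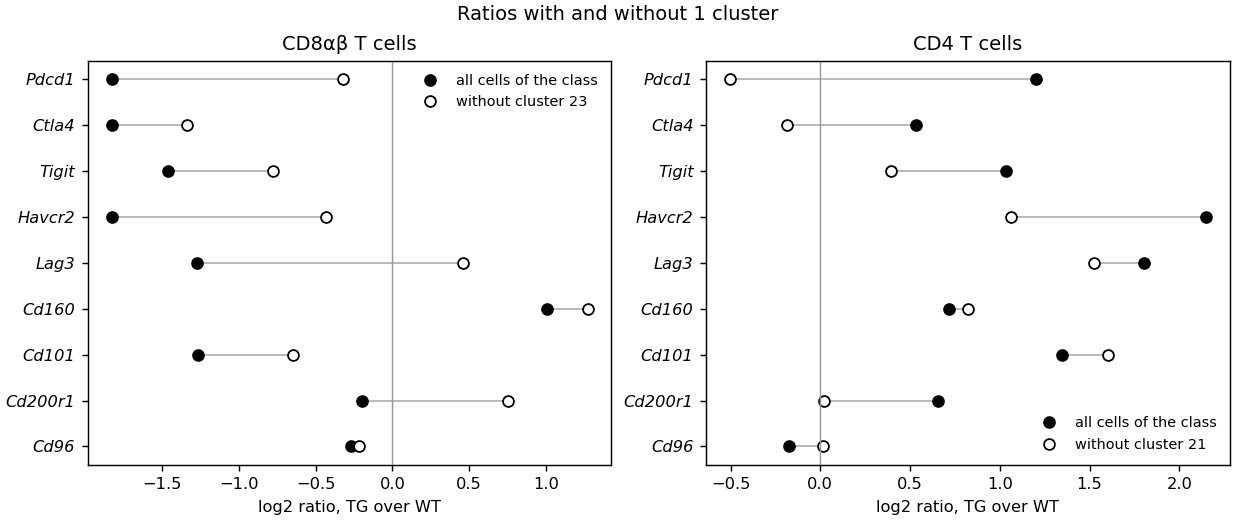
Filled points give the log2 ratio of TG over WT of each receptor over all cells of the class, and open points give it without cluster 23 (CD8αβ T cells, left) or without cluster 21 (CD4 T cells, right). Lag3 crosses 0 on the left, from -1.27 to 0.46, and Pdcd1 crosses 0 on the right, from 1.2 to -0.50, and the open point of Havcr2 on the right rests on 3 TG and 4 WT UMIs.

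The remaining T and NK classes gave fewer differences. In CD8αα T cells 7 members had at least 10 UMIs, with a median log2 ratio of -0.01. Pdcd1 was lower in TG by the rule, from 4 and 8 UMIs (-2.19, -4.45 to -0.37), where 2.24% of 9199 genes were, and 0 members were higher, where 3.44% were. The Pdcd1 ratio was -2.35 without the cells with a Trdc UMI and -1.08 at 1000 UMIs per cell. Lag3 (0.65, 0.16 to 1.19) and Cd101 (0.85, 0.0047 to 1.88) were higher in TG by less than 2-fold, and Cd160 was at -0.01 (-0.16 to 0.14). A difference in Cd160 was thus not detectable in the class with its highest level.

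In NKT cells 2 members were at least 2-fold higher in TG, where 3.97% of 10962 genes were, and 0 were lower, where 1.35% were. Tigit was at 17 CPM in TG against 6.21 CPM in WT (1.46, 0.72 to 2.17), and Cd200r1 at 23.2 and 8.78 CPM (1.41, 0.79 to 2.0). Both held within cluster 0, the main NKT cluster with 403 TG and 1986 WT cells, at 1.2 and 1.45. The TG cells with this name held Cd4 at 634 CPM and the WT cells at 162 CPM, and its part in these values was not tested.

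In the cells named NK 3 of 8 members were at least 2-fold lower in TG, where 4.26% of 10172 genes were, and 0 were higher, where 3.54% were. Tigit was at 32.9 CPM in TG against 67.9 CPM in WT (-1.04, -1.49 to -0.61), Cd200r1 at 19.7 and 53.6 CPM (-1.43, -2.0 to -0.91) and Ctla4 at 0.876 and 6.85 CPM (-2.71, -6.18 to -0.77) from 2 and 11 UMIs. Neither Ctla4 value lay above that of mature B cells, at 4.17 and 7.51 CPM (2.52 and 3.14 CPM without cluster 17). The clusters under this name differed between the libraries, with cluster 11 holding 343 of 759 TG and 22 of 615 WT cells and cluster 8 holding 20.2% and 46.7%. Tigit was at 16.2 CPM and Cd200r1 at 10.8 CPM in TG cluster 11, whose 22 WT cells held 2 and 0 UMIs of them. Without cluster 11, an alternative chosen after seeing the data, Tigit was at -0.63 and Cd200r1 at -1.08. The name was not clean in TG. Cd3e, a T cell gene, was at 1158.5 CPM in TG against 97.8 CPM in WT, and Trac at 836 and 196 CPM, while the NK gene Ncr1 was at 561 and 969 CPM. Cluster 8 had low Cd3e in both libraries (133 and 67.5 CPM). In that cluster alone, a choice made after seeing the data, Tigit was at -0.27 and Lag3 at 0.76, each with an interval that included 0 (-1.03 to 0.45 and -0.60 to 2.20). The median over the 4 members with at least 10 UMIs in that cluster (Tigit, Lag3, Cd160 and Cd96) was 0.025, against -0.66 over the 8 members in the whole class. In cluster 3, where TG cells held Cd3e at 1608 CPM and WT cells at 122 CPM, Cd200r1 was at 44.3 and 101 CPM (-1.17, -1.80 to -0.60) and Tigit at 41.8 and 78.0 CPM.

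Over whole libraries, where cell types are present in different shares, Havcr2 (log2 ratio -1.07, -1.42 to -0.73), Pdcd1 (-0.97, -1.32 to -0.63) and Ctla4 (-0.71, -0.95 to -0.48) were lower in TG, and Cd160 was higher (0.51, 0.44 to 0.58). With the WT shares of cell types in both libraries these values were -0.64, -0.64, -0.23 and 0.23. With each of the 14 cell types given the same weight Havcr2 was at -0.34, Pdcd1 at -1.39, Ctla4 at 0.00014 and Cd160 at 0.07. Each then lay outside its interval, with a larger difference for Pdcd1 and smaller ones for the others, and that of Ctla4 was not kept. Small types count in full here, such as γδ T cells (17 in TG and 192 in WT) and cells named other. A Pdcd1 difference in γδ T cells was not detectable, and the part of such types in these values was not tested. Tigit was at -0.09 (-0.30 to 0.12), with the lower values of CD8αβ T and NK cells and the higher values of CD4 T and NKT cells in the same sum.

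Activating counterparts and transcription factors were read beside the receptors. In CD4 T cells 3 of the 7 genes listed as activating counterparts were at least 2-fold higher in TG by the rule and 0 lower. These were Tnfrsf9 (log2 ratio 3.49), Tnfrsf4 (2.35) and Tnfrsf18 (1.46), all costimulatory receptors of the TNF family. The list median was 0.57. That list includes Btla (-0.51), which encodes an inhibitory receptor and is also among the further genes. Of 12 transcription factors 3 were higher there, Prdm1 (1.46), Tbx21 (1.37) and Batf (1.29), and 0 were lower. Of 10 further exhaustion or regulatory genes 4 were higher there and 0 lower, Il10 (4.5, from 24 and 2 UMIs), Il2ra (1.84), Entpd1 (1.59) and Ikzf2 (1.54). Over all genes 5.07% were higher by the same rule. Cluster 21, with the regulatory T cell genes, was 20.2% of TG and 8.86% of WT CD4 T cells, and its part in these list values was not tested.

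In CD8αβ T cells 2 of the 12 transcription factors were lower in TG, Tox at 39.8 CPM in TG against 116 CPM in WT (-1.55) and Nr4a2 at 24.9 and 84.2 CPM (-1.75). Tbx21, which encodes the effector factor T-bet, was at 209 and 60.7 CPM (1.78) and was the 1 higher. Over all genes of the class 2.88% were lower and 3.79% higher, and cluster 23 was 9.28% of its WT and 1.47% of its TG cells. Of the 7 genes listed as activating counterparts, Btla among them, 1 was higher there (Tnfrsf4, 1.02) and 0 were lower. Of the 10 further genes Foxp3 (-1.07) and Ikzf4 (-1.76) were lower and Cd244a (1.11) was higher. In NK cells Tox (-1.25), Eomes (-1.26) and Nr4a3 (-1.09) were lower and Irf4 (2.20) was higher, where 4.26% of all genes were lower and 3.54% higher. The T cell genes and the cluster shares given above for the cells named NK moved with these values, and their part was not tested. Of 8 signalling genes below these receptors, among them the phosphatase genes Ptpn6, Ptpn11 and Inpp5d, 0 were called in either direction in each of the 5 classes, with list medians between 0.14 and 0.47. Of the 9 to 13 ligand genes with at least 10 UMIs in a class 2 to 4 were higher in TG and 0 or 1 lower, where 3.44% to 5.07% of all genes were higher and 1.35% to 4.26% lower. H2-Aa, an MHC class II gene, was among the higher ones in all 5, at 1.10 to 2.06, while cells mixing B lineage with T lineage UMIs made up 13% of TG and 5.89% of WT cells. The part of such mixed cells in these values was not tested.

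The antibodies gave a second reading of 4 members, as counts per 1000000 antibody counts. CD366, which reads TIM-3, was at 25823 in WT cluster 22 and 11240 in TG cluster 22, where 61.2% of the TG counts lay in 3 cells, against 99.2 and 53.9 in WT and TG mature B cells. WT cells of cluster 22 with a Havcr2 UMI had 33315 and those without had 15451. In CD8αβ T cells, CD366 was at 1882.5 in TG cells with Havcr2 and 182 in those without, and at 1385 and 225 in WT. The antibody was thus higher in the cells with the transcript in both libraries, and the class as a whole was at 227 in TG (207 to 249) and 279 in WT (254 to 307).

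CD279, which reads PD-1, was at 1199 in TG CD8αβ T cells (1151 to 1248) and 2072 in WT (2001 to 2146), the same direction as Pdcd1. Mature B cells, which should lack the protein, differed in the same direction, at 854 and 1461. WT γδ T cells were at 3398 and had the highest mean centred log ratio of CD279 among cell types (0.74). Their cells with a Pdcd1 UMI had 5768 and those without 3027. In cluster 23 CD279 was at 4560 in TG and 3998 in WT. WT monocytes reached 13975, but 73.9% of these counts lay in 3 cells and the rest stood at 4480.5.

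CD223, which reads LAG-3, was at 1783 in TG pDC and 2413 in WT pDC, above mature B cells (724 and 931) and below macrophages (3532 and 3357), where the transcript was at 11.4 and 23.6 CPM. WT pDC with a Lag3 UMI had 2620 and those without 2005, and in TG the values were 1778 and 1816. TIGIT antibody was sparse, with a median of 0 counts in every cell type. It reached 739 in WT cluster 23 (572 to 940) and 320 in TG cluster 23, all from 3 cells there, against 112 and 79.4 in mature B cells.

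**Figure D5:**
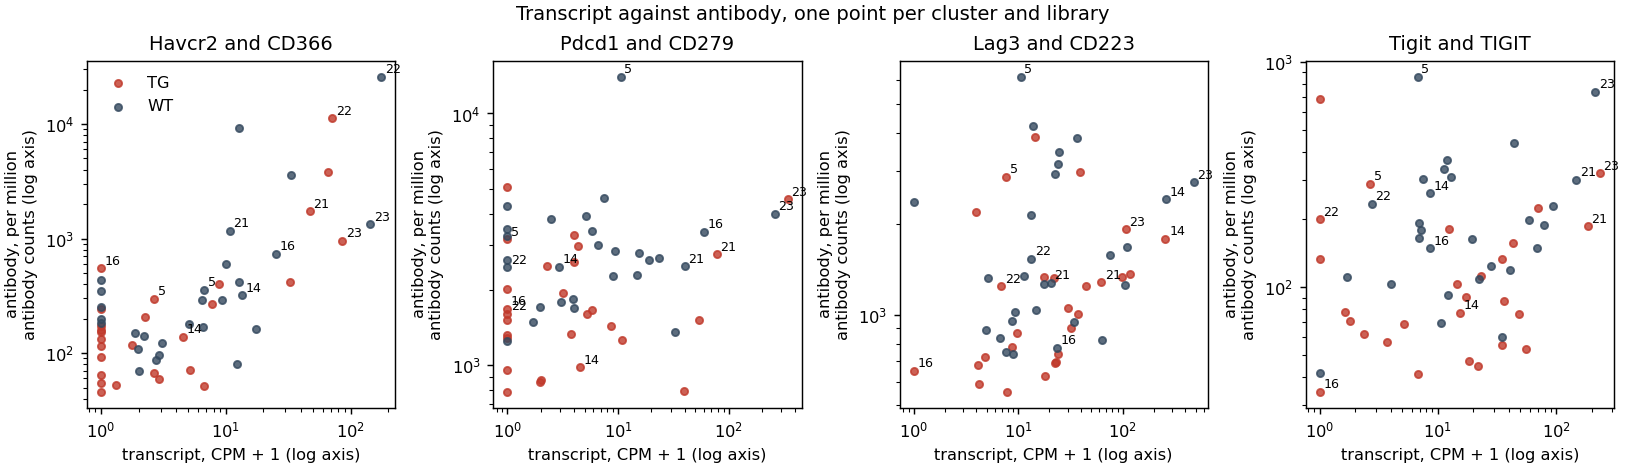
Each point is 1 cluster in 1 library (TG red, WT dark blue), with the transcript (CPM + 1, horizontal) against its antibody (counts per 1000000 antibody counts, vertical), both on log axes. Cluster 22 is highest for Havcr2 with CD366 in WT (175 CPM, 25823), and clusters 21 and 23 lie to the right for Tigit and Pdcd1.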

How the data were processed

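UMI counts were deposited by the authors for each cell, after alignment to mm10 with STAR in the BD Rhapsody pipeline, in 2 library files and in a filtered table whose filter on cells is not given in the sources used here. Deposited antibody counts and the authors' centred log ratios of them (natural log) were used, and the authors give a mitochondrial percent per cell (median 5.14% in TG, 6.03% in WT). The authors' 14 cell type names, 30 clusters and genotype names were used as given. The pools held 10026 and 24111 cells, of which 4647 and 7282 carry a genotype name, and the member counts of these cells were identical in both kinds of file. Of the cell indexes 267 occurred in both pools, and 36 of these belonged to named cells. No column of another sample was used.

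For each genotype, the counts of a cell set were added up and scaled to 1000000 (CPM). No test could be made on 1 library each, and no p-value is given. A gene was called in a class when its log2 ratio was at least 2-fold with an exact interval excluding 0, among genes with at least 10 UMIs over both profiles. The floor for 0 UMIs is 3 counts. Cells were thinned to 1000 UMIs, which left out no cell. Doublets were called with Scrublet (scanpy 1.11.5, expected rate 5%), which marked 0.904% of TG and 3.30% of WT cells, and were kept in the main values. The alternative without doublets also left out cells with at least 2 T lineage and at least 2 B lineage UMIs. These mixed cells were 13.0% of TG and 5.89% of WT cells. The genes named are the members, the lists of ligands, activating counterparts, signalling genes, transcription factors and further genes, cell type markers, and the 3 genes closest to each member by Pearson correlation of log2(CPM + 10) over profiles of at least 50 cells, among genes with at least 200 UMIs. Members and lists were chosen with earlier results of these data known. Alternatives were TMM factors (edgeR 4.0.16), equal weight per cell, totals that leave out mitochondrial and ribosomal genes, removal of doublets, of the 3 richest cells or of clusters, thinning and no minimum count. Ratio intervals were tried on simulated independent Poisson counts, the model they assume, which cannot show how they cover UMIs clumped in single cells. Python 3.11.15, numpy 2.4.6, scipy 1.17.1 and pandas 2.3.3 were used.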

Additional observations from a re-analysis of the deposited data

Results flagged for a closer look

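The log2 ratio of TG over WT pointed in opposite directions in different cell classes for 8 of the 9 members, each with counting intervals that excluded 0 in both classes. With 1 library per genotype none of these differences between classes was tested. All values here are the ratio in the first class minus that in the second. CD4 T cells lay above CD8αβ T cells by 3.98 for Havcr2, 3.08 for Lag3, 3.03 for Pdcd1, 2.49 for Tigit and 2.36 for Ctla4. Without cluster 23 in CD8αβ T cells and without cluster 21 in CD4 T cells the directions were no longer opposite for 3 of these, with Pdcd1 at -0.32 and -0.50, Ctla4 at -1.34 and -0.19, and Lag3 at 0.46 and 1.53. Havcr2 was then at -0.43, with overlapping intervals between the libraries, and at 1.06 from 3 and 4 UMIs, below the minimum. Tigit was at -0.78 and at 0.39, the latter from 11 and 23 UMIs. At 1000 UMIs per cell Lag3 in CD4 T cells was at 0.34, in place of 1.80. CD4 T cells also lay above CD8αα T cells by 3.39 for Pdcd1, and above NK cells by 3.24 for Ctla4 and 2.08 for Tigit. Without cluster 21 the directions of Pdcd1 and Ctla4 were no longer opposite in these pairs either.

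NKT cells lay above CD8αβ T cells by 2.92 for Tigit and 0.59 for Cd96, and above NK cells by 2.84 for Cd200r1 and 2.50 for Tigit. CD8αα T cells lay above CD8αβ T cells by 2.12 for Cd101 and 1.92 for Lag3. Without cluster 23 Lag3 was higher in TG in both of these classes (0.46 and 0.65), although its CD8αβ intervals overlapped between the libraries. Cd101 in CD8αβ T cells was then at -0.65, also with overlapping intervals, and its interval in CD8αα T cells began at 0.0047. The T cell genes in the TG cells named NK move with the pairs that involve NK cells, and their part was not tested.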

How the results depend on the processing

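The medians over the members kept their direction under all alternatives in CD8αβ T, CD4 T and NKT cells. In NK cells the median was 0.025 in cluster 8 alone over the 4 members with at least 10 UMIs there, and -0.77 when the 4 members with fewer were counted. In CD8αα T cells, where the value was near 0, it ranged from -0.18 to 0.0045. Of 46 values for the 5 medians 38 stayed within the spread set by the counting intervals. The others were -0.32 without cluster 23, -0.70 without cluster 23 at the WT cluster make-up and -2.03 without cluster 7 in CD8αβ T cells, -0.18 without cells with a Trdc UMI in CD8αα T cells, 0.39 without cluster 21 in CD4 T cells (0.21 over the 8 members with at least 10 UMIs in those cells), and -1.04 with no minimum count in NK cells, where Havcr2 with 8 UMIs then entered. The settings without cluster 21 and with the WT cluster make-up, like those on NK clusters, were chosen after seeing the data. Single values whose main interval excluded 0 and that changed direction were Lag3 in CD8αβ T cells without cluster 23 (0.46, and 0.041 at the WT cluster make-up), Cd96 in CD8αβ T cells at 1000 UMIs per cell (0.015), Pdcd1 (-0.50) and Ctla4 (-0.19) in CD4 T cells without cluster 21, and over whole libraries Ctla4 at equal cell type make-up (0.00014) and Cd96 at the WT make-up (0.0047). The cause was not tested for these. Without its 3 richest cells in each library Ctla4 in CD8αβ T cells was at -2.87. Of the other values 303 stayed within the counting interval and 59 moved beyond it, and 11 and 6 of these changed sign from a main value whose interval included 0, among them Cd200r1 in CD8αβ T cells without cluster 23 (0.75), Lag3 in NK cluster 8 (0.76), and at 1000 UMIs per cell Ctla4 in NKT cells (0.35) and Cd96 in CD8αα T cells (0.32). Those of Cd101 in NK cluster 8 (0 and 1 UMIs) and in thinned CD4 T cells (0% of TG cells positive) were set by the pseudocount. No paired analysis was possible because each genotype has 1 library. Members with few UMIs per class, such as Havcr2 in NKT cells (3 and 7 UMIs), are limited by depth.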

Other observations

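Each pool also held cells to which the metadata give no genotype. They stood for no group, and their member levels are given as values. They were placed in classes by lineage transcripts, since they carry no cell type name. In the second pool 16829 such cells included 7594 of the CD8 T class, with Lag3 at 226 CPM, Tigit at 144 CPM, Pdcd1 at 133 CPM, Havcr2 at 73.8 CPM and Ctla4 at 57.1 CPM. By the same class rule the 922 named WT cells of that pool held 71.4, 50, 37.3, 19.8 and 27.9 CPM of these genes in the same order. Cd160 was at 161 CPM in the cells with no name and 213 CPM in the named WT cells. The CD4 T class with no name in this pool, 2259 cells, held Lag3 at 167 CPM, Tigit at 152 CPM, Ctla4 at 105 CPM and Pdcd1 at 87.1 CPM.

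In the first pool 5379 cells had no genotype name. Among them the CD8 T class of 1247 cells held Lag3 at 106 CPM, Pdcd1 at 87.2 CPM and Tigit at 82.5 CPM, where the 800 named TG cells of that class held 56.1, 9.03 and 34.6 CPM. Havcr2 was at 6.41 CPM (4.41 to 9.0) and 4.98 CPM (2.85 to 8.09), with overlapping intervals, Ctla4 at 25 and 6.54 CPM, and Cd160 at 438 and 464 CPM. The class rule is coarse. Of the named cells it placed in the CD8 T class 85.4% in TG and 71.6% in WT carry a CD8 T cell name, and in the CD4 T class 20.3% and 38.4% carry the CD4 T cell name.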
